A study of Sus scrofa with 3 samples.

Results

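The microRNAs ssc-miR-1 and ssc-miR-206 are the members of the porcine miR-1 seed family in the deposited small RNA tables of psoas major muscle. They were found by name, with the suffix that marks variants removed, and gave 1 row each in every library, 2 of the 276 porcine mature miRNAs listed. The study sequenced 1 small RNA library for each of 63, 98 and 161 d of age, each made from equal amounts of total RNA of 6 castrated male pigs of a Landrace × Large White × Duroc cross. The labels name no treatment, and age is the only factor that they vary. No library was replicated, so every interval below covers counting error only, PCR copies were not separated from molecules, and the spread between pigs of one age was not measured. The comparison of ages asks how the miRNAs of a growing muscle change while its fibre types shift.

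A miRNA pairs with target transcripts mainly through its seed, bases 2 to 8 counted from its 5′ end, and miRNAs with the same seed are predicted to share targets. Both members are made almost only in striated muscle. miR-1 is found in heart and skeletal muscle and represses HDAC4, an inhibitor of muscle gene transcription. miR-206 is known from skeletal muscle, is induced when myoblasts differentiate, and is known from muscle regeneration and the neuromuscular junction.

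The sequences are shown because the base that differs between the known miRNAs and the reads lies in the seed, which is printed in capitals. The known form is the mature sequence that the files give for the miRNA, and the representative read is the read that the authors' pipeline chose as best for that arm. The same representative read was listed at 63, 98 and 161 d.
ssc-miR-1, known: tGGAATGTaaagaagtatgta
ssc-miR-1, representative read: tGTAATGTaaagaagtatgtat
ssc-miR-206, known: tGGAATGTaaggaagtgtgtga
ssc-miR-206, representative read: tGTAATGTaaggaagtgtgtga
Both representative reads carried the substitution G3T, in which the known base stands first, its position from the 5′ end follows, and the base of the read stands last. The seed GGAATGT of the known sequences was therefore GTAATGT in the reads. The read of ssc-miR-1 was also 1 base longer at the 3′ end (22 against 21 bases). With that base included, the known forms of the members were identical at 18 of 22 positions (81.8%) and differed by A11G, A17G, A21G and T22A from ssc-miR-1 to ssc-miR-206, all outside the seed. Among the 276 porcine mature miRNAs listed, 2 had GGAATGT in the known sequence, the members themselves, and 0 had GTAATGT.

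The hairpins are shown next because miR-1 comes from more than 1 of them. Capitals mark the read on the 5′ arm and the mature form on the 3′ arm, and each hairpin is written 5′ to 3′ as its RNA is read. Positions are those of the files, whose genome build is not given in the sources used here. The hairpin of ssc-miR-1 lay at chr17:69285393-69285500 on the minus strand, and that of ssc-miR-206 at chr7:52426442-52426524 on the plus strand. Another miR-1 hairpin, which the files name after cattle bta-miR-1, lay at chr6:99481915-99482025 on the plus strand.
ssc-mir-1, chromosome 17: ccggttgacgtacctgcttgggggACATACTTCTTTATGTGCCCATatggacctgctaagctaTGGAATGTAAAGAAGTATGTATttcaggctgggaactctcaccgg
Other miR-1 hairpin, chromosome 6: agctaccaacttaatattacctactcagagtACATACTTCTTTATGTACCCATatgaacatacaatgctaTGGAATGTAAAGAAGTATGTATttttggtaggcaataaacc
ssc-mir-206, chromosome 7: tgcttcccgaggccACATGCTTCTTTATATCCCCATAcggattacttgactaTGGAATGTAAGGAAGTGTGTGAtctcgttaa
In every hairpin the genome had G at position 3 of the mature form. Both miR-1 hairpins held the same 22 bases on the 3′ arm, so mature reads of the loci cannot be told apart. Each hairpin had a miR-133 hairpin beside it on the same strand, the usual pairing of these muscle miRNAs. The hairpin ssc-mir-133a-1 stood 10637 bases from ssc-mir-1, ssc-mir-133a-2 stood 3175 bases from the other miR-1 hairpin, and ssc-mir-133b stood 3760 bases from ssc-mir-206. In the RefSeq gene table of the Sscrofa11.1 assembly, MIR1 has LOC110257484 and MIR133A-1 as neighbours on chromosome 17, MIR206 has LOC110261539 and MIR133B on chromosome 7, and no other gene overlaps either member. MIR133A-2 lies within MIB1 and LOC110261182 on chromosome 6 in that table.

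Reads in the files numbered 1464699, 2418187 and 2242716 for the ages in rising order, and 968868, 1716582 and 1549309 of them remained when each miRNA was counted at 1 hairpin. Levels (RPM) are reads per 1000000 of these counted reads, so 3 counts, taken as the smallest detectable amount, stood for 3.10, 1.75 and 1.94 RPM. The tissue label was checked against known miRNAs. All 7 muscle-enriched miRNAs looked for were listed, led by ssc-miR-133a-3p at 313958, 244755 and 306298 RPM, counted at its chromosome 17 hairpin only. Of 13 miRNAs known from other tissues 10 were listed under porcine names. The other 3, all epithelial, were listed under bovine names only, with 17, 62 and 43 reads of bta-miR-200b, 1, 5 and 2 of bta-miR-200c, and 2, 16 and 9 of bta-miR-141. Epithelial ssc-miR-205, added after its values were seen, had 240, 734 and 549 reads, or 248, 428 and 354 RPM. Reads of miRNAs known from epithelium were thus listed at every age, at low levels. The counts of bta-miR-200c at 63 and 161 d and of bta-miR-141 at 63 d lay below 3. Whether epithelial cells gave these reads was not tested.

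ssc-miR-1 was among the most abundant miRNAs of the muscle at every age and was highest in the 98 d library. It had 18128, 76517 and 47677 reads at 63, 98 and 161 d, respectively. Its level was 18711 RPM in the 63 d library (95% counting interval 18442 to 18982), 44575 RPM in the 98 d library (44267 to 44885) and 30773 RPM in the 161 d library (30502 to 31046). Thus the 98 d library lay above both others and the 63 d library lowest, with no overlap of the intervals. ssc-miR-206, by contrast, was highest at 98 d and lowest at 161 d. It had 2779, 6571 and 2962 reads, and in the same order its level was 2868 RPM (2763 to 2977), 3828 RPM (3736 to 3921) and 1912 RPM (1844 to 1982). Among the porcine mature miRNAs it ranked 35, 31 and 44 in the order of reads. The share of both members in the counted reads was 2.16%, 4.84% and 3.27%. Dividing by all reads of the file instead gave 12377, 31642 and 21259 RPM for ssc-miR-1 and 1897, 2717 and 1321 RPM for ssc-miR-206, with the same order of the libraries.

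**Figure D1:**
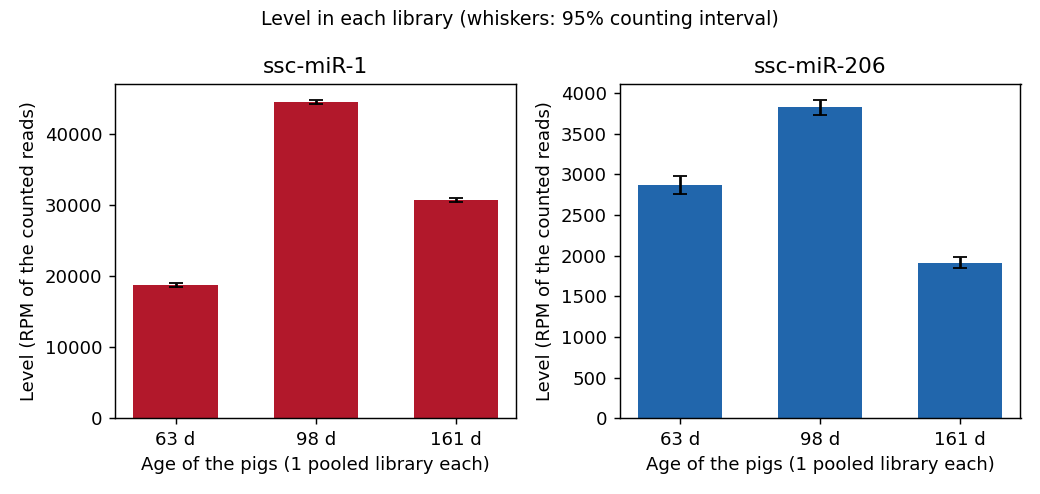
Level of ssc-miR-1 (left) and ssc-miR-206 (right) in RPM of the counted reads, with 1 bar for each pooled library of 63, 98 and 161 d and 95% counting intervals; the scales of the panels differ. ssc-miR-1 was lowest at 63 d (18711 RPM), ssc-miR-206 at 161 d (1912 RPM), and both were highest at 98 d.

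Changes between ages were read as the ratio of RPM of the later to the earlier library and called when above 2 or below 0.5, the fold that the study uses. From 63 to 98 d, ssc-miR-1 was 2.38-fold higher (95% counting interval 2.34 to 2.42), while ssc-miR-206 was 1.33-fold higher (1.28 to 1.40). In this pair 1 of the 2 members was called, against 28% of the 601 miRNAs with at least 10 counts in either direction and 15.8% more than 2-fold higher. Among the 140 porcine miRNAs with at least 100 counts in every library, 6 were more than 2-fold higher, and ssc-miR-1 had the fold of rank 5 while ssc-miR-206 stood at rank 50.

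From 98 to 161 d both members were lower in the later library. The fold was 0.690 for ssc-miR-1 (0.682 to 0.698) and 0.499 for ssc-miR-206 (0.478 to 0.522), so that the interval of ssc-miR-206 spanned the limit of 0.5. Thus 1 of the 2 members was called by a narrow margin, against 27.7% of the 621 miRNAs in either direction and 20% more than 2-fold lower. The fold of ssc-miR-206 ranked 134 and that of ssc-miR-1 ranked 103 of the 140 porcine miRNAs, counted from the highest. The call on ssc-miR-206 was lost with edgeR's TMM scaling, which gave 0.583, with DESeq2's median of ratios, which gave 0.603, and with ssc-miR-133a-3p left out of the total, which gave 0.544. Under the main scaling the median log2 fold of all tested miRNAs was itself -0.25 in this pair, against -0.03 with TMM. Relative to that median, ssc-miR-206 was lower by -0.75 and ssc-miR-1 by -0.29 on the log2 scale. Of all miRNAs past 2-fold, 27.9% were higher at 161 d under the main scaling and 39.9% under TMM.

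From 63 to 161 d the members moved in opposite directions when all reads were counted. ssc-miR-1 was 1.64-fold higher (1.62 to 1.67) and ssc-miR-206 was 0.667 of its earlier level (0.633 to 0.702). Neither was called, 0 of the 2 members, against 36.3% of the 576 miRNAs tested. Relative to the median of all tested miRNAs, which was -0.21 on the log2 scale, ssc-miR-1 was higher by 0.93 and ssc-miR-206 lower by -0.38. With only the reads mapped without error, ssc-miR-1 was 1.94-fold higher (1.79 to 2.11). For ssc-miR-206 these reads gave 0.874 (0.721 to 1.06), an interval that held 1. This pair uses the same libraries as the other pairs and adds no independent evidence.

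**Figure D2:**
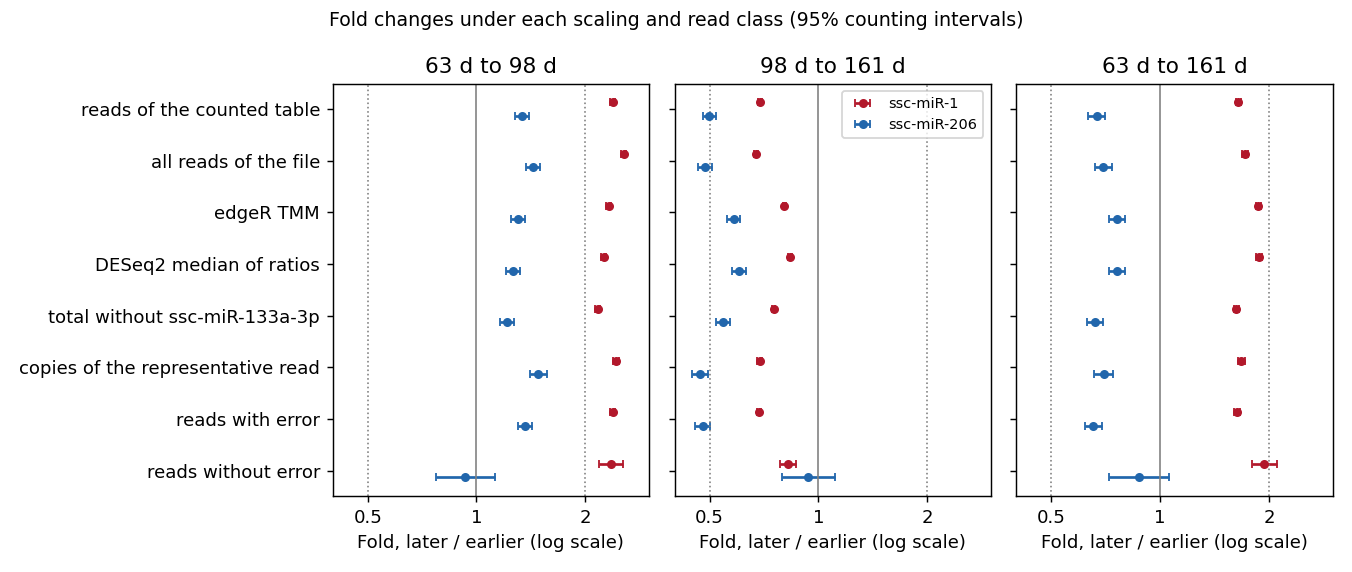
Fold of the later over the earlier library for ssc-miR-1 (red) and ssc-miR-206 (blue) in each pair of ages, on a log axis, under 5 scalings and 3 classes of reads, with 95% counting intervals. Dotted lines mark 0.5 and 2; ssc-miR-1 lay above 2 from 63 to 98 d under every setting drawn, while ssc-miR-206 crossed 0.5 from 98 to 161 d under some settings only.

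The ratio of the members within a library needs no scaling between libraries, and it was higher at each later age. In the 63 d library 6.52 reads of ssc-miR-1 stood against each read of ssc-miR-206 (95% counting interval 6.27 to 6.79). This ratio was 11.6 in the 98 d library (11.4 to 11.9) and 16.1 in the 161 d library (15.5 to 16.7). The ratio was 1.79 times higher at 98 than at 63 d (1.70 to 1.87), and 1.38 times higher at 161 than at 98 d (1.32 to 1.45). Over the whole period it was 2.47 times higher (2.34 to 2.61). None of these intervals held 1. The copies of the representative reads alone gave 6.16, 10.1 and 14.8, in the same order. Reads that matched the hairpin without error gave a different course, with ratios of 4.34 (3.70 to 5.12), 11.0 (9.78 to 12.4) and 9.65 (8.49 to 11.0) for the ages in rising order. With these reads the ratio at 161 d was 0.878 of that at 98 d (0.735 to 1.05), so the last step of the rise was not seen in them.

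**Figure D3:**
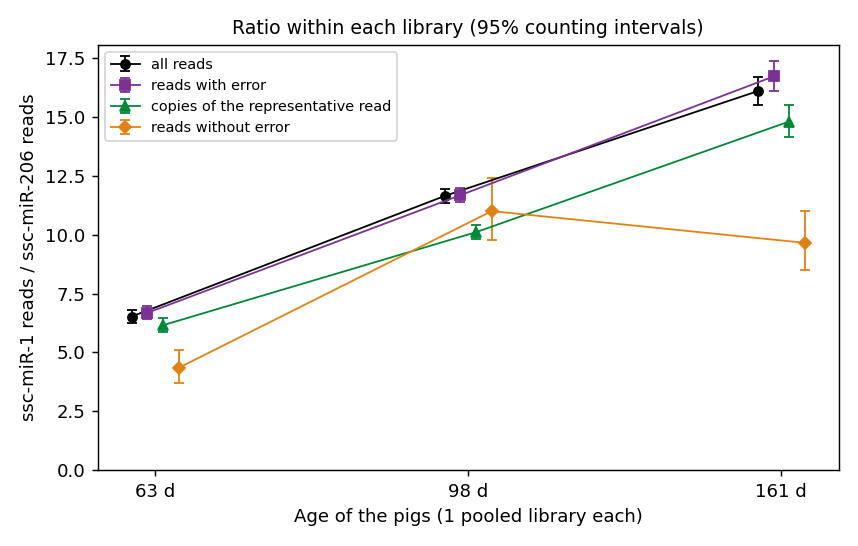
Reads of ssc-miR-1 divided by reads of ssc-miR-206 in each library, for all reads, reads mapped with error, copies of the representative read and reads mapped without error, with 95% counting intervals; the ages are drawn at equal distances. The ratio rose from 6.52 to 16.1 with all reads, whereas reads without error gave 11.0 at 98 d and 9.65 at 161 d.

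Nearly all reads of both members were mapped with an error. Of the reads of ssc-miR-1, 95.5% (95% Clopper-Pearson interval 95.2 to 95.8), 95.6% (95.4 to 95.7) and 94.7% (94.5 to 94.9) differed from the hairpin at 63, 98 and 161 d. For ssc-miR-206 the shares were 93.3% (92.3 to 94.2), 95.3% (94.8 to 95.8) and 91.2% (90.1 to 92.2). Among the 140 porcine miRNAs with at least 100 reads in every library, ssc-miR-1 ranked 1 and ssc-miR-206 ranked 2 by this share at each age. The median of the others was 15.6%, 15.2% and 15.2%, and 7 of them exceeded 50% in each library. The nearest was ssc-miR-106a, at 80.5%, 87.7% and 87.8%. Over all rows of the files 17.2%, 18.5% and 17.6% of the reads were mapped with an error.

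**Figure D4:**
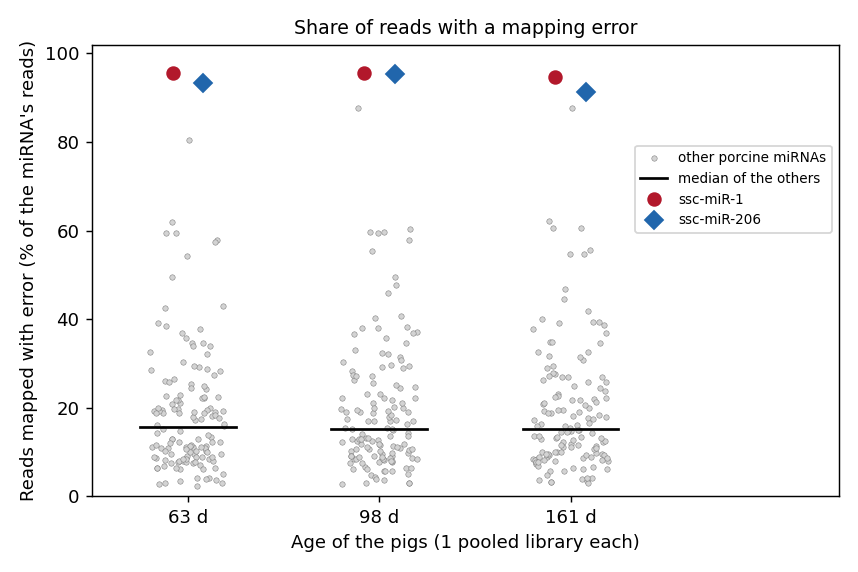
Percent of the reads of each porcine miRNA that were mapped with an error, in each library, for the miRNAs with at least 100 reads in every library (grey), with the median of the others (line), ssc-miR-1 (red) and ssc-miR-206 (blue). Both members lay above 91%, over every other miRNA drawn, and the median of the others was 15.6%, 15.2% and 15.2%.

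Most of these reads were copies of the G3T form itself. The representative read made up 65.6%, 65.3% and 64.0% of all reads of ssc-miR-1 at 63, 98 and 161 d (11898, 49977 and 30511 copies). For ssc-miR-206 it made up 69.6%, 75.3% and 69.6% (1933, 4945 and 2061 copies). Reads that matched the hairpin without error, and so had the known base at position 3 wherever they covered it, numbered 808, 3377 and 2510 for ssc-miR-1 and 186, 307 and 260 for ssc-miR-206. Hence the level of a member depended on whether reads with an error were kept. On the RPM scale, the exact reads of ssc-miR-206 did not differ between ages beyond counting error, with folds of 0.932 (0.774 to 1.12) and 0.938 (0.792 to 1.11) for the successive pairs of ages. Its reads with an error were 1.36-fold higher (1.30 to 1.43) and then 0.478 of the earlier level (0.457 to 0.50). The exact reads of ssc-miR-1 were 2.36-fold higher from 63 to 98 d (2.18 to 2.55), close to the 2.38-fold of its reads with an error (2.34 to 2.42). The share of reads with an error was lower at 161 d than at 98 d for both members, with an odds ratio of 0.831 for ssc-miR-1 (0.788 to 0.876) and 0.509 for ssc-miR-206 (0.428 to 0.607).

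No other porcine miRNA was listed with G3T. A representative read with any substitution was listed for 16 of 261, 14 of 266 and 18 of 264 porcine miRNAs at 63, 98 and 161 d, and 4 in each library had it within the seed. These 4 were the members, ssc-miR-301 (C5G) and ssc-miR-369 (T3G). The change G3T was found in 2 of these 4 in each library, the members. The C5G read of ssc-miR-301 had 447, 679 and 481 copies, while 133, 289 and 196 of its reads had a mapping error. That read thus matched the hairpin and differed from the known mature sequence only, unlike the G3T reads of the members. A known sequence that begins with TGG, as those of the members do, was listed for 12, 14 and 13 porcine miRNAs, of which 2 in each library had G3T. Only 5, 7 and 5 of these miRNAs, the members included, had at least 100 reads, so the comparison rests on few. ssc-miR-7, a miRNA known from neurons and endocrine cells, kept TGG and had 11.9%, 11.9% and 11.0% of its reads with an error. ssc-miR-24-3p, which is widely expressed, kept TGG as well, and 57.4%, 55.4% and 54.6% of its reads had an error, but its representative read differed by an added 3′ base. The changed base also stood apart in the quality of the read. The files give each representative read a score summed over all of its bases and again over the matching bases only, on a scale that the sources used here do not state. The mismatched base of ssc-miR-1 had 69.7%, 72.7% and 69.8% of the mean score of its other bases, and that of ssc-miR-206 70.1%, 70.2% and 70.5%. In the other porcine representative reads with 1 error and at least 100 copies, 4, 7 and 6 in number, this value lay between 88.1% and 107%. Among them only ssc-miR-106a and, at 98 and 161 d, ssc-miR-29a were listed with a substitution. The rest were listed with added 3′ bases only. The substitution of ssc-miR-106a lay at the 5′ end base, and its value was the lowest of these reads in each library. None of these reads had a substitution at position 3. The part of read position and of the kind of mismatch in the score was not tested. Whether the base is in the RNA or arose in sequencing was not tested.

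The forward primer that the study lists for its qPCR of ssc-miR-1 held the substituted form, and its part shared with the representative read is printed in capitals.
Forward primer: gggTGTAATGTAAAGAAGT
It shared 16 bases with the 5′ end of the representative read after 3 added bases, and the known sequence of the same length was not found in it.

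The arm opposite the mature miRNA separates the miR-1 loci, because the 5′ arm differs between them by G17A. The read of the chromosome 17 arm, named mml-miR-1-1-5p after the macaque, is ACATACTTCTTTATGTGCCCAT, and that of the chromosome 6 arm, mml-miR-1-2-5p, is ACATACTTCTTTATGTACCCAT. The chromosome 17 arm had 7, 31 and 15 reads at 63, 98 and 161 d, and the chromosome 6 arm had 4, 13 and 11. In RPM this was 7.22, 18.1 and 9.68 for the chromosome 17 arm and 4.13, 7.57 and 7.10 for the chromosome 6 arm. The level of the chromosome 6 arm was thus nearly the same at 98 and 161 d. Both arms were listed at all ages and had most reads at 98 d, which was also the library with most counted reads. The chromosome 17 locus held 63.6% (95% Clopper-Pearson interval 30.8 to 89.1), 70.5% (54.8 to 83.2) and 57.7% (36.9 to 76.6) of these reads at 63, 98 and 161 d, so no difference between ages was detectable at this depth. Summed over the libraries it held 53 of 81 reads, 65.4% (54.0 to 75.7). The files nevertheless assigned nearly every mature read to chromosome 17. The mature arm on chromosome 6 had only 16, 83 and 39 reads, listed as bta-miR-1, whose representative read is tGTAATGTaaagaagtgtgtat with the seed in capitals. It differed from the hairpin by G3T and A17G and thus carried the same change in the seed. The counts of ssc-miR-1 can therefore hold reads from both loci.

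The mature arm outnumbered its opposite arm strongly for both members. For miR-1, with the opposite arms of both loci summed, there were 1648, 1739 and 1834 reads of ssc-miR-1 for each opposite-arm read. The opposite arm of ssc-mir-206, listed as ssc-mir-206-p5 and ggo-mir-206-p5, had 4, 11 and 7 reads in all, or 695, 597 and 423 reads of ssc-miR-206 for each. None of the opposite arms reached 100 reads, and at 98 d the sum for miR-1 was 44.

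Most of the other muscle-enriched miRNAs did not pass 2-fold. Of the 7 on the list, 1 was called from 63 to 98 d, against the 28% of all miRNAs tested, and it was ssc-miR-499-3p, the sparse arm opposite ssc-miR-499-5p. It had 2, 9 and 5 reads, and its fold of 2.54 had a 95% counting interval of 0.526 to 24.2, which spans both limits. From 98 to 161 d 0 of 7 were called (27.7% of all), and from 63 to 161 d 0 of the 6 with at least 10 counts (36.3% of all). The median fold of the list was 1.14 from 63 to 98 d, 0.835 from 98 to 161 d and 0.988 from 63 to 161 d. ssc-miR-208b, encoded in a slow myosin gene, had 808, 1600 and 1190 RPM and a fold of 1.98 from 63 to 98 d. In the same step the ratio of ssc-miR-1 to ssc-miR-208b was 1.20 times higher (95% counting interval 1.11 to 1.30). ssc-miR-499-5p, encoded in another slow myosin gene, had 1563, 2374 and 1440 RPM. ssc-miR-486, which acts on PI3K signalling and is also abundant in red blood cells, had 59232, 54487 and 59218 RPM.

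The miR-133 neighbours had other folds than the members. ssc-miR-133a-3p, whose hairpin lies beside that of ssc-miR-1 and which promotes myoblast proliferation, had a fold of 0.780 from 63 to 98 d while ssc-miR-1 had 2.38, and 1.25 from 98 to 161 d while ssc-miR-1 had 0.690. Within a library there were 0.0596 reads of ssc-miR-1 for each of ssc-miR-133a-3p at 63 d, 0.182 at 98 d and 0.100 at 161 d. For these values ssc-miR-133a-3p was counted at its chromosome 17 hairpin only. The ratio was 3.06 times higher at 98 than at 63 d (95% counting interval 3.00 to 3.11) and at 161 d was 0.552 of that at 98 d (0.545 to 0.558). The reads of ssc-miR-133a-3p are divided between the hairpins on chromosomes 17 and 6, so they cannot be set to 1 neighbour. The chromosome 6 hairpin held a further 329563.7, 454425.8 and 511594.5 reads at 63, 98 and 161 d. The levels and ratios of ssc-miR-133a-3p given here leave these out, so they understate its level and overstate ssc-miR-1 relative to it. The other arm, ssc-miR-133a-5p, likewise counted at chromosome 17 only, had 668, 554 and 462 RPM. ssc-miR-133b, the neighbour of ssc-miR-206, had 2002, 2272 and 2027 RPM, with a fold of 1.14 from 63 to 98 d and 0.892 from 98 to 161 d, beside 1.33 and 0.499 for ssc-miR-206. The ratio of ssc-miR-206 to ssc-miR-133b was 1.18 times higher at 98 than at 63 d (1.10 to 1.26) and at 161 d was 0.560 of that at 98 d (0.525 to 0.597). Its reads too are divided where they fit several hairpins.

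**Figure D5:**
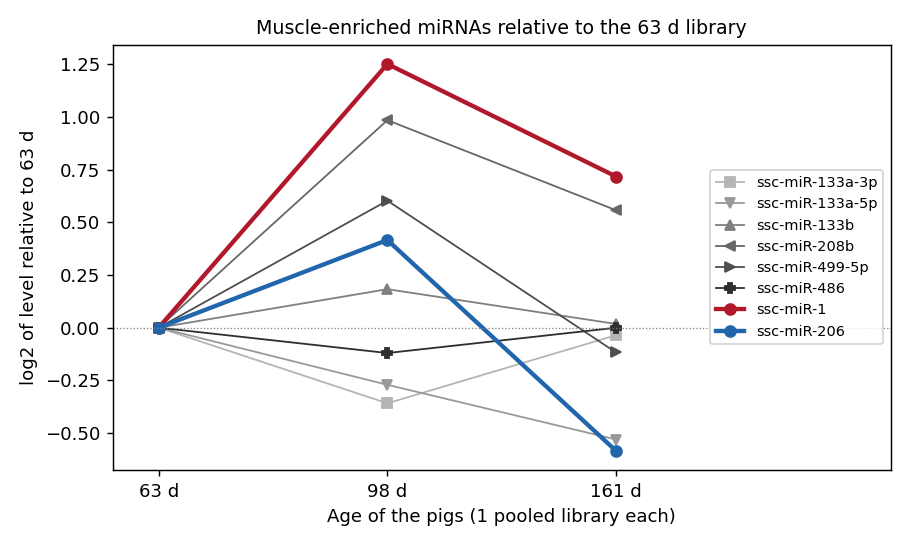
log2 of the level (RPM) relative to the 63 d library for ssc-miR-1 (red), ssc-miR-206 (blue) and 6 muscle-enriched miRNAs (grey), in the pooled libraries of 63, 98 and 161 d drawn at equal distances; ssc-miR-499-3p, at 2, 9 and 5 reads, is left out. Of the miRNAs drawn, ssc-miR-1 was highest at 98 d (1.25), and ssc-miR-206 was at -0.59 at 161 d.

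By the Euclidean distance of log2 RPM centred over the 3 libraries, among the same 140 porcine miRNAs, the profiles nearest to ssc-miR-1 were those of ssc-miR-374a-5p (distance 0.18), ssc-miR-208b (0.19) and ssc-miR-450b-5p (0.20). ssc-miR-450b-5p, of an X-linked cluster, had 518, 1383 and 788 RPM. Nearest to ssc-miR-206 were ssc-miR-542-3p (0.17), ssc-miR-95 (0.22) and ssc-let-7g (0.22), the last with 10122, 11346 and 6933 RPM. The members themselves were 0.93 apart. With 3 points a profile, these distances are a description.

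Several miRNAs of other cell types were also highest in the 98 d library. The endothelial ssc-miR-126-3p and ssc-miR-126-5p summed to 8819, 13762 and 9784 RPM, the leukocyte ssc-miR-142-3p and ssc-miR-142-5p to 956, 1483 and 1011 RPM, and the red blood cell ssc-miR-451 and ssc-miR-144 to 1221, 2101 and 1548 RPM. Each of these sums was highest at 98 d, as were both members. The smooth muscle ssc-miR-143-3p and ssc-miR-145-5p summed to 14180, 16656 and 39365 RPM, and liver ssc-miR-122 had 11.4, 173 and 7.75 RPM. Neuronal ssc-miR-124a had 121, 144 and 170 RPM and was thus highest at 161 d. Of the 13 such miRNAs looked for, 10 were listed, under porcine names, with a median fold of 1.46 from 63 to 98 d and 0.713 from 98 to 161 d. The same directions were seen in the background. The median fold of all tested miRNAs was 1.07 and then 0.842 in these pairs. For the 140 porcine miRNAs with at least 100 counts in every library it was 1.16 and 0.836. A level highest at 98 d is therefore not particular to these cell types or to the members. There were 5.67, 10.9 and 10.8 reads of ssc-miR-1 for each of ssc-miR-126-3p. That ratio was 1.93 times higher at 98 than at 63 d (95% counting interval 1.84 to 2.02), and at 161 d it was 0.984 of that at 98 d (0.946 to 1.02). The part of these cells in the changes of the members was not tested, and in bulk RNA fewer cells of a type and less RNA per cell cannot be told apart.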

How the data were processed

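Illumina small RNA libraries of psoas major muscle were analysed, 1 library of 6 pooled pigs for each of 63, 98 and 161 d. The authors trimmed the reads, discarded repeats and RNA of other classes, and aligned what was left to known hairpins and the pig genome with ACGT101-miR version 4.2 (LC Sciences). Aligner settings and the genome build are not given in the sources used here. The deposited counts are whole copies of the representative read of a hairpin arm, without normalisation. The expected counts deposited by the authors are the reads of all isoforms of the arm, in total, without and with mapping error, where a read that fits several hairpins is divided between them. The deposited score columns sum base scores over a read. In the 63 d file rows without a name repeat the name above them.

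Libraries were grouped by the age label. Each miRNA was counted at the hairpin listed in most libraries, ties by file order, and expected counts were rounded for intervals. Levels are given per 1000000 of these counts. Folds and ratios carry exact conditional binomial, and shares exact Clopper-Pearson, 95% intervals. Changes of a ratio or share between libraries carry the exact conditional interval of the odds ratio, and those of a ratio to another miRNA the Woolf interval. With 1 library per age no test could be fitted and no p-value is given. A fold above 2 or below 0.5 was called, over miRNAs with at least 10 counts in the pair, without a pseudocount. Named besides the members were rows sharing their seed, 3 nearest profiles each, a list of 7 muscle miRNAs, 13 of other tissues, and hairpins within 20000 bases. ssc-miR-7, ssc-miR-24-3p, ssc-miR-29a, ssc-miR-106a, ssc-miR-205, ssc-miR-301, ssc-miR-369 and the bovine-named epithelial miRNAs were named after their values had been seen. The members and lists were chosen with earlier results of these data known. Chromosomes were read from the sequence records in the files. Alternatives were other scalings, read classes, hairpin rules and count minimums. The computation was tested on simulated data. Python 3.11.15 (numpy 2.4.6, pandas 2.3.3, scipy 1.17.1, matplotlib 3.10.9) and R 4.3.3 (edgeR 4.0.16 and DESeq2 1.42.0, for scaling factors only) were used.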

Additional observations from a re-analysis of the deposited data

How the results depend on the processing

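Each change was made alone, and the use of reads without or with error for folds, and of read classes for the change of the ratio, was chosen after seeing the data. The folds of ssc-miR-1 kept their direction and their side of the limits under every scaling and read class tried. From 98 to 161 d, the fold of ssc-miR-206 passed to the other side of 0.5 with TMM (0.583), with the median of ratios (0.603), without ssc-miR-133a-3p in the total (0.544) and with reads without error (0.938). From 63 to 98 d its direction reversed with reads without error (0.932). The ratio of ssc-miR-1 to ssc-miR-206 at 63, 98 and 161 d was 6.16, 10.1 and 14.8 with copies of the representative read, 4.34, 11.0 and 9.65 with reads without error, and 16.7 at 161 d with reads with error. Its change was 1.64 from 63 to 98 d and 1.46 from 98 to 161 d with copies. With reads without error its change was 2.53 and 0.878 in the same pairs, the latter reversed, and 2.22 from 63 to 161 d. Taking copies of the representative read in place of all reads with error gave shares of 65.6%, 65.3% and 64.0% for ssc-miR-1 and 69.6%, 75.3% and 69.6% for ssc-miR-206. The number of miRNAs past 2-fold from 63 to 98 d, 98 to 161 d and 63 to 161 d was 168, 172 and 209, with 962, 1013 and 916 when no minimum was set and 57, 50 and 79 with at least 100 counts. The fewer or more miRNAs tested follow from the minimum itself, and the cause of the other differences was not tested. In all, 55 of 84 recomputed values were counted as unchanged. For folds and ratios this meant the same side of the limit or within the counting interval. Numbers of miRNAs past 2-fold have neither, and values such as 175 against 168 or 189 against 209 were counted as unchanged. No paired analysis was possible because each age had 1 pooled library. Depth limits the values that rest on few reads, such as those of the opposite arms and of the chromosome 6 miR-1 hairpin.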

Other observations

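Outside the miR-1 loci, bases 2 to 8 of a member, known or substituted, were found in representative reads at 8 listed positions of predicted candidate arms. None of these had more than 6 reads in a library. Some of the positions overlap or carry the same name and reads, so they are not 8 separate arms. They were listed at 98 or 161 d and had 0 reads at 63 d. The candidate with most reads, PC-3p-50398 on chromosome 5, had 6 reads at 98 d and 4 at 161 d and carried GTAATGT. On chromosome 17, PC-3p-100942 had 6 reads at 98 d and carried GGAATGT. PC-3p-434201, which overlaps it on the same strand and has the same bases, had 3 reads at 161 d. These counts are close to the 3 counts taken as the smallest detectable amount, and 63 d was also the library with the fewest reads.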
